A study of Mus musculus with 8 samples.

Results

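Respiratory complex I is the entry point of the mitochondrial respiratory chain. It takes electrons from NADH, passes them along a row of iron-sulphur clusters to ubiquinone and pumps protons across the inner mitochondrial membrane. The enzyme is L-shaped, with a matrix arm that holds the NADH-oxidizing (N) module and the ubiquinone-binding (Q) module, and a membrane arm with a proximal and a distal part. Some subunits are encoded by mitochondrial DNA and the others by nuclear genes. In the lung, mitochondria of pulmonary artery smooth muscle cells have been studied as oxygen sensors, and complex I is one of the sites at which reactive oxygen species can form.

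The genes described are 33 nuclear complex I subunit genes taken from a list by symbol, and all 33 were found among the 25428 probe sets of the array, with 1 probe set per gene. The lungs came from 8 mice of the genotype Nfat5fl/fl, in which the gene of the transcription factor NFAT5 is flanked by loxP sites. Normoxic mice F, G, H and I (n = 4) were compared with hypoxic mice A, B, C and D (n = 4), which breathed 10% oxygen for 7 days, to see how the hypoxic lung differs from the normoxic lung in its gene expression. Per the study's methods the animals were adult males of a line crossed with SM-MHC-CreERT2, a tamoxifen-inducible Cre of smooth muscle cells. They received the solvent miglyol and no tamoxifen, so that *Nfat5* was left in place in both groups. Mice with the deletion were not analysed here.

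Each array holds the RNA of lung tissue of 1 mouse with all of its cell types. Fewer cells of a type and less RNA per cell therefore cannot be told apart. The values are log2 intensities after the authors' normalization, a difference of -1 means that the level is halved in hypoxia, and levels of different genes are not set against each other because each probe set has its own brightness. The number of arrays limits the precision. Array medians lay between 4.17 and 4.20. The column of mouse F is stored with finer steps than the others, with 25311 distinct values against 9326 to 9422 in the other 7 mice, and the cause was not tested. Over 9 marker genes of the alveolar epithelium the mean deviation from each gene's 8-mouse mean lay between -0.27 and 0.21. The score of 4 endothelial genes was -0.34 in mouse F and 0.34 in mouse H, the lowest and highest of the 8 mice. The 4 smooth muscle genes had a median difference of 0.49 between hypoxia and normoxia, with 3 higher means and separate groups in 1 (*Acta2*), and the 3 erythroid genes one of 0.56, with 3 higher means. The part of these cell types in the results on complex I was not tested. Markers of fat and striated muscle were high in 1 or more of the normoxic lungs, depending on the list, as given below. Mouse F had the highest score of the complex I genes, which is why the comparison of the 33 genes is also given without it.

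Nuclear genes of respiratory subunits are known targets of the factors NRF1, GABP (also called NRF-2), YY1 and the oestrogen-related receptors (ERR). Promoter windows from 250 bases before to 50 bases after the RefSeq start site (build GRCm38.p6) were available for 30 of the 33 genes and are not shown for *Ndufs1*, *Ndufa2* and *Ndufb9*. They were searched on both strands for 1 exact core motif per factor. The YY1 core AAGATGGC was in 7 of the 30 windows, against 3.19% of the 27025 genes in the RefSeq table. In all 7 the match began 23 to 39 bases after the start site, in the transcribed part, on the strand of the gene. The core contains the letters ATG, and whether a match covers the start codon was not looked up. These 7 stretches are shown because this motif was in more of the 30 windows than any other motif searched. The core is in capitals and each sequence is written 5′ to 3′ on the strand of the gene.
*Ndufa3* (chr7:3617384-3617413, plus strand): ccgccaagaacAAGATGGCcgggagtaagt
*Ndufa9* (chr6:126849097-126849126, minus strand): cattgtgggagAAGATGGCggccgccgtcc
*Ndufb8* (chr19:44555393-44555415, minus strand): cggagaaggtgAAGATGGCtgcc
*Ndufc1* (chr3:51408915-51408944, minus strand): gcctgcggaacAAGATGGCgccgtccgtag
*Ndufs4* (chr13:114388045-114388070, minus strand): ttgcctacaggAAGATGGCggcggtc
*Ndufs6* (chr13:73328433-73328460, minus strand): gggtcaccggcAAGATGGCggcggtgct
*Ndufs7* (chr10:80249462-80249491, plus strand): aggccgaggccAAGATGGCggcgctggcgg
In hypoxia these 7 genes differed by -0.48 (*Ndufs4*) to 0.08 (*Ndufa3*) on the log2 scale, on both sides of the median of all 33 genes given below.

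The core of the NRF1 site, searched as GCATGCGC, was in 3 of the 30 windows (*Ndufa6*, *Ndufa8* and *Ndufa11*), against 3.05% of all genes. The GABP core CCGGAAG was in 4 (*Ndufb6*, *Ndufb7*, *Ndufs3* and *Ndufs8*), against 9.93%. The ERR core AAGGTCA was in 1 (*Ndufb2*), against 5.38%. No gene matched more than 1 of the 4 motifs, so matches of different motifs did not overlap. In *Ndufa11* the NRF1 core matched on both strands at 1 overlapping site. A match is only a description of the letters. Of the genes whose groups separated completely in hypoxia, *Ndufs3* carries GABP cores on both sides of its start site and *Ndufab1* has a match to none of the 4 motifs. The 120 bases before the start sites of these genes, both on the minus strand, are therefore shown with the GABP core in capitals.
*Ndufs3* (chr2:90904722-90904841, minus strand): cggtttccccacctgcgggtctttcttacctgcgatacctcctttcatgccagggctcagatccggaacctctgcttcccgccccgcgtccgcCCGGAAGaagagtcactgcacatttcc
*Ndufab1* (chr7:122101849-122101968, minus strand): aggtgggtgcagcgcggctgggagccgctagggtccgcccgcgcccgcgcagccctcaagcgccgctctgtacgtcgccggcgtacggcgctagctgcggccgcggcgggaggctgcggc

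Most complex I subunit genes had a somewhat lower mean in the hypoxic lungs, but no single gene passed the test. Of the 33 genes, 28 had a lower and 5 a higher mean in hypoxia, against 50.9% of all probe sets with a lower mean. The median difference over the 33 genes was -0.20 on the log2 scale, against -0.0049 over all probe sets, and single genes ranged from -0.98 (*Ndufab1*) to 0.33 (*Ndufa8*). By limma with Benjamini-Hochberg adjustment over all probe sets, 0 of the 33 genes had an adjusted p under 0.05, and the smallest adjusted p was 0.253. The same fit called 0 of 25428 probe sets (0.0%). At an unadjusted p under 0.05, 7 genes were lower and 0 higher, against 3.15% of all probe sets lower and 5.34% higher. The hypoxic values lay entirely below the normoxic values in 3 genes and entirely above in 0, against 1.61% and 3.01% of all probe sets.

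The genes varied together from mouse to mouse. The scatter within the normoxic group was wide beside the difference between the groups, as it was in most probe sets. The mean deviation of the 33 genes from their own 8-mouse means reached 0.48 in mouse F and 0.18 in mouse G, against 0.07 in mouse I and -0.25 in mouse H. It was 0.01 in hypoxic mouse A, 0.07 in B, -0.23 in C and -0.33 in D. The normoxic lung of mouse H thus lay at the level of the lowest hypoxic lungs C and D, and hypoxic lungs A and B lay between normoxic lungs G and H. Mouse F had the highest value of all 8 mice in 25 of the 33 genes and mouse H the lowest value of the normoxic mice in 25, which describes the mice with the highest and lowest normoxic scores of these same genes. In 31 of the 33 genes the range among the 4 normoxic mice was wider than the difference between the group means. This share was close to that of all probe sets (23917 of 25428). The median SD over the genes was 0.36 in normoxia, 0.34 in normoxia without mouse F and 0.25 in hypoxia, against 0.27, 0.26 and 0.24 over all probe sets.

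**Figure D1:**
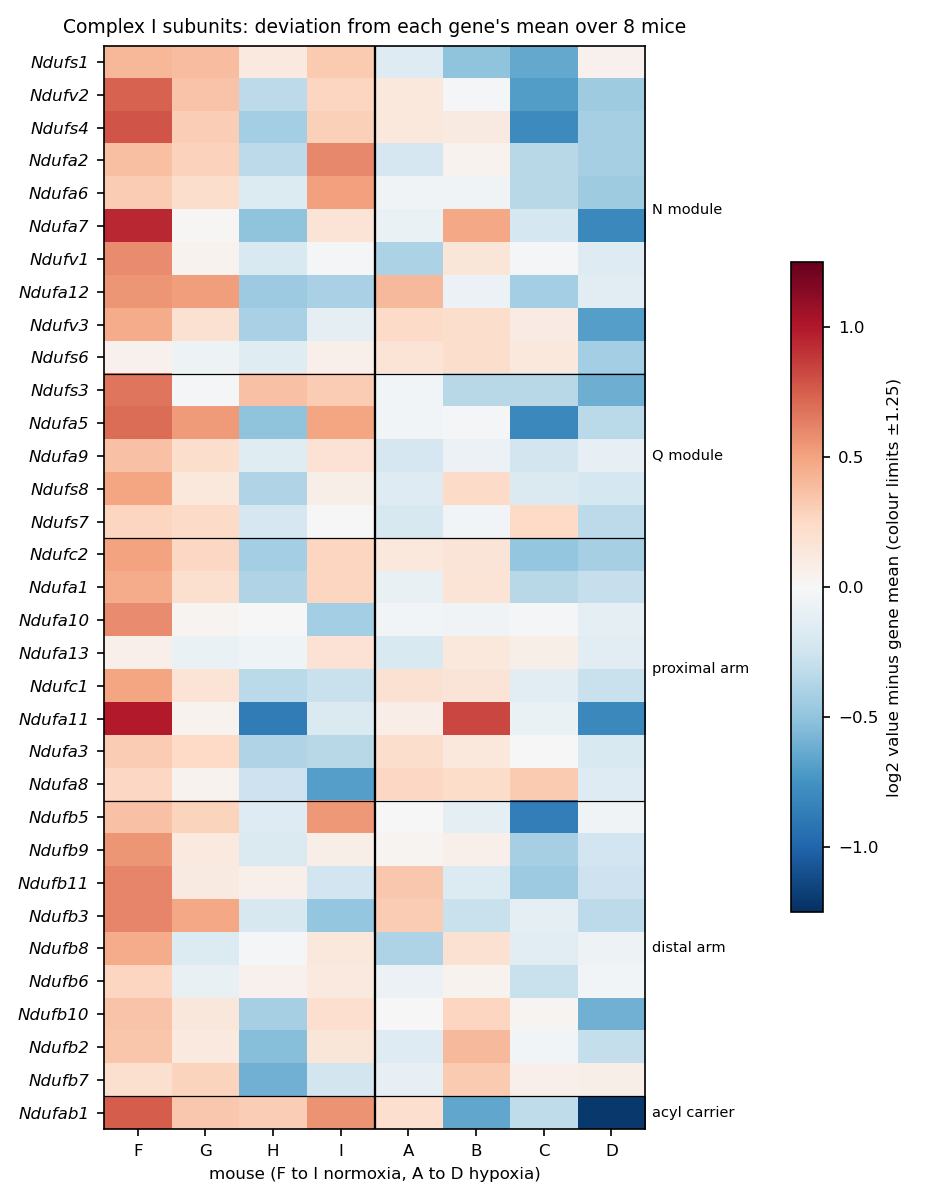
Deviation of each of the 33 complex I genes (rows, ordered by module and then by the difference between groups) from its own mean over 8 mice, in log2 units by colour, for normoxic mice F to I and hypoxic mice A to D (columns). The column of mouse F is above the gene mean in 33 genes, that of normoxic mouse H in 6 and that of hypoxic mouse D in 2.

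The largest difference was that of *Ndufab1*, the mitochondrial acyl carrier protein, which serves mitochondrial fatty acid synthesis and sits in both arms of complex I. Its log2 intensity in normoxic mice F to I was 5.55, 5.13, 5.10 and 5.35, and 4.996, 4.14, 4.47 and 3.59 in hypoxic mice A to D. The groups did not overlap, although mouse A lay just under the lowest normoxic mouse and mouse D well below the other hypoxic mice. The mean was 5.28 ± 0.21 in normoxia and 4.30 ± 0.59 in hypoxia (SD, n = 4 each), a difference of -0.98 (SE 0.26), which is 50.6% of the normoxic level (limma, adjusted p = 0.253). In a two-sided exact permutation test of the group labels the p was 0.0286, the smallest that 4 against 4 mice allow. Every gene with separate groups has this p, which held for 1.61% of all probe sets lower and 3.01% higher in hypoxia. Here and below it therefore adds nothing to the separation, and it is not adjusted for the number of genes.

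*Ndufs3*, a core subunit of the Q module, was 5.77, 5.08, 5.46 and 5.42 in F to I and 5.06, 4.75, 4.75 and 4.49 in A to D. Mouse G and mouse A were close to each other, and the groups again did not overlap. The difference was -0.67 (SE 0.19, limma, adjusted p = 0.283; exact permutation p = 0.0286). *Ndufs1*, the large core subunit of the N module that carries several iron-sulphur clusters, was 6.37, 6.34, 6.08 and 6.29 in F to I and 5.80, 5.45, 5.32 and 6.02 in A to D. Its lowest normoxic mouse (H) and highest hypoxic mouse (D) were neighbours without overlap, and the difference was -0.63 (SE 0.18, limma, adjusted p = 0.31; exact permutation p = 0.0286). These 3 are the genes whose groups were separate.

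Among the other 9 genes of the N module, *Ndufa6* and *Ndufa2* had the smallest p-values. *Ndufa6*, an LYR-motif protein that holds the acyl carrier protein in the matrix arm, was 7.67, 7.57, 7.18 and 7.86 in F to I and 7.31, 7.31, 7.01 and 6.91 in A to D. The groups overlapped only through normoxic mouse H, which lay below A and B, and the difference was -0.44 (SE 0.18, limma, adjusted p = 0.532). *Ndufa2*, a small accessory subunit with a thioredoxin-like fold, was 7.23, 7.14, 6.52 and 7.45 in F to I and 6.64, 6.90, 6.51 and 6.44 in A to D. Mouse H was again inside the hypoxic range, and the difference was -0.46 (SE 0.21, limma, adjusted p = 0.572). *Ndufs4*, an accessory subunit whose loss in mice causes a Leigh-like encephalopathy, was 7.16, 6.68, 5.94 and 6.67 in F to I and 6.50, 6.49, 5.58 and 5.96 in A to D. Here H and C were the low mice of their groups, the difference was -0.48 (SE 0.28, limma, adjusted p = 0.688), and without mouse F it was -0.30.

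*Ndufa7*, an accessory subunit of the same module, was 6.83, 5.90, 5.38 and 6.06 in F to I and 5.80, 6.37, 5.67 and 5.08 in A to D. Mouse F was alone above all the others and the remaining mice were mixed, with a difference of -0.32 (SE 0.32, limma, adjusted p = 0.835) that was -0.05 without mouse F. The core subunits *Ndufv1*, which binds NADH and the flavin, and *Ndufv2*, which holds an iron-sulphur cluster, differed by -0.21 (SE 0.20) and -0.51 (SE 0.25). *Ndufa12*, *Ndufv3* and *Ndufs6* differed by -0.11, -0.07 and 0.05. Over the 10 genes of the N module, 9 had a lower mean, 3 were lower at an unadjusted p under 0.05, and the median was -0.38 (-0.18 without mouse F).

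All 5 genes of the Q module had a lower mean, with a median of -0.31 (-0.24 without mouse F), and 2 of them, *Ndufs3* and *Ndufa5*, were lower at an unadjusted p under 0.05. *Ndufa5*, an accessory subunit, differed by -0.60 (SE 0.27, limma, adjusted p = 0.58). *Ndufa9*, which belongs to the short-chain dehydrogenase family and binds NADPH, differed by -0.31 (SE 0.15), with hypoxic values from 7.27 to 7.43 and normoxic values of 7.86, 7.72, 7.34 and 7.67 in F to I. Only mouse H of the normoxic group lay in the hypoxic range. *Ndufs7*, which carries the last iron-sulphur cluster before ubiquinone, differed by -0.15 (SE 0.18), and *Ndufs8*, an iron-sulphur subunit, by -0.16 (SE 0.20). The 6 core subunits measured, which are those of the N and Q modules conserved from bacteria to mammals, all had a lower mean, with a median of -0.36 (-0.22 without mouse F).

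The proximal part of the membrane arm held the gene with the highest difference. This was *Ndufa8*, a subunit on the intermembrane side with twin CHCH domains, which was 8.45, 8.23, 7.93 and 7.50 in F to I and 8.45, 8.42, 8.52 and 8.03 in A to D. Mouse F was close to hypoxic mice A, B and C, while H and I lay below all hypoxic mice, and the difference was 0.33 (SE 0.21, limma, adjusted p = 0.728). Without mouse F it was 0.47 (SE 0.21, limma, adjusted p = 0.54). *Ndufa3* was 9.40, 9.33, 8.71 and 8.73 in F to I and 9.30, 9.21, 9.08 and 8.89 in A to D. The normoxic mice formed a high and a low pair around the hypoxic values, and the difference was 0.08 (SE 0.20), turning to -0.03 without mouse H and -0.02 without mouse I.

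*Ndufa11*, an accessory subunit near the junction of the arms, was 4.88, 3.93, 3.01 and 3.71 in F to I and 3.97, 4.72, 3.80 and 3.08 in A to D. Both groups spanned nearly the same range, and the difference was 0.01 (SE 0.39) with all mice and 0.34 (SE 0.34) without F. This gene was dim on the array, with a mean under 5, as were *Ndufab1* and *Ndufb3*. *Ndufa10*, with a fold like that of nucleoside kinases, was 8.78, 8.22, 8.19 and 7.76 in F to I, with hypoxic values from 8.08 to 8.18. The hypoxic values were nearly equal and the normoxic values spread around them, with a difference of -0.10 (SE 0.20) that was 0.08 without mouse F. Of the others, *Ndufc2* differed by -0.30, *Ndufa1* by -0.28, *Ndufa13* (GRIM-19) by -0.06 and *Ndufc1* by -0.03. Of the 8 genes of the proximal membrane arm 5 had a lower mean and 0 had an unadjusted p under 0.05, and the median was -0.04 (0.11 without mouse F).

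Of the 9 genes of the distal membrane arm, 8 had a lower mean, 1 was lower at an unadjusted p under 0.05, and the median was -0.20 (-0.08 without mouse F). That gene was *Ndufb5*, a single-pass membrane subunit, with 6.83, 6.75, 6.30 and 7.01 in F to I and 6.47, 6.35, 5.61 and 6.42 in A to D. Mouse C lay far below the other hypoxic mice and mouse H inside the hypoxic range, and the difference was -0.51 (SE 0.22, limma, adjusted p = 0.566). *Ndufb7*, a CHCH-domain subunit of the intermembrane side, was 6.82, 6.90, 6.02 and 6.39 in F to I and 6.52, 6.95, 6.68 and 6.69 in A to D. Its hypoxic values lay inside the upper part of the normoxic range apart from mouse B, which was highest, and the difference was 0.18 (SE 0.21, limma, adjusted p = 0.859). The remaining 7 genes ranged from -0.28 (*Ndufb9*, the LYR-motif protein that holds the acyl carrier protein in the membrane arm) to -0.04 (*Ndufb2*), with *Ndufb11* at -0.28, *Ndufb3* and *Ndufb8* at -0.20, *Ndufb6* at -0.17 and *Ndufb10* at -0.15. The difference between modules was not tested.

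**Figure D2:**
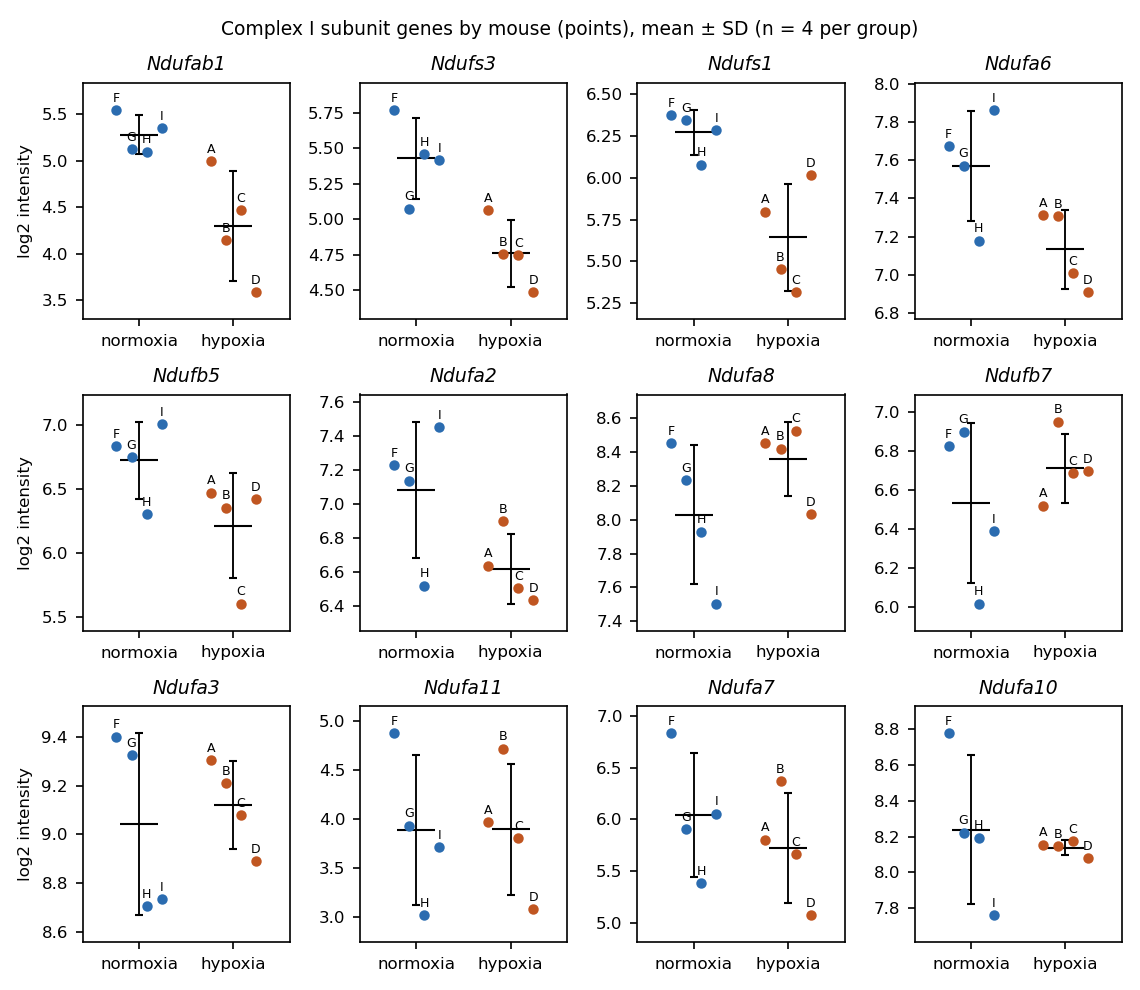
Log2 intensity of 12 complex I genes in each mouse (points with the letter of the mouse), with the group mean and SD (bars, n = 4 each), each panel with its own axis, which does not start at 0. *Ndufab1*, *Ndufs3* and *Ndufs1* are the genes whose groups do not overlap, and in *Ndufa7*, *Ndufa10* and *Ndufa11* mouse F is the highest of all 8 mice.

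Without normoxic mouse F the difference of the complex I genes was smaller. Mouse F was singled out for its high level of respiratory genes. Over the 33 genes it lay above the mean of the other 3 normoxic mice by 0.05 to 1.33, with a median of 0.48. Leaving it out therefore had to move all 33 differences upward. With F left out (4 hypoxic against 3 normoxic mice), 23 of the 33 genes had a lower mean, against 52.0% of all probe sets, and the median difference was -0.08, against -0.01 over all probe sets. The 5 genes that had a lower mean with F and a higher mean without it were *Ndufa10*, *Ndufa12*, *Ndufb2*, *Ndufc1* and *Ndufv3*. At an unadjusted p under 0.05, 3 genes were lower (*Ndufab1*, *Ndufs3* and *Ndufs1*) and 1 higher (*Ndufa8*), against 3.54% and 5.6% of all probe sets. The groups did not overlap in 3 genes lower in hypoxia and 0 higher, against 2.59% and 4.36%, and leaving out a normoxic mouse cannot make separate groups overlap. None of the 33 had an adjusted p under 0.05, nor did any probe set (0.0%).

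Without mouse F *Ndufab1* differed by -0.89 (SE 0.28, limma, adjusted p = 0.375), *Ndufs3* by -0.55 (SE 0.19, adjusted p = 0.437) and *Ndufs1* by -0.59 (SE 0.20, adjusted p = 0.436). Leaving out mouse H, the normoxic mouse with the lowest score, moved the counts the other way. Without it the groups did not overlap in 13 genes lower in hypoxia, against 3.83% of all probe sets, and 12 were lower at an unadjusted p under 0.05, against 4.32%. F and G were the normoxic mice with the highest scores of these same genes (0.48 and 0.18). Leaving out both therefore had to move the mean difference of the genes upward. It left 17 of 33 genes with a lower mean, a share near the 52.5% of all probe sets, and a median of -0.05. In that setting 3 genes were lower at an unadjusted p under 0.05, against 5.76% of all probe sets, and 8 had separate groups. Hypoxic values were the lower ones in *Ndufab1*, *Ndufs3*, *Ndufs1* and *Ndufb6* and the higher ones in *Ndufa3*, *Ndufa8*, *Ndufb7* and *Ndufc1*. Of all probe sets, 11.1% had separate groups with lower values in hypoxia, and the share with higher values was not counted.

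**Figure D3:**
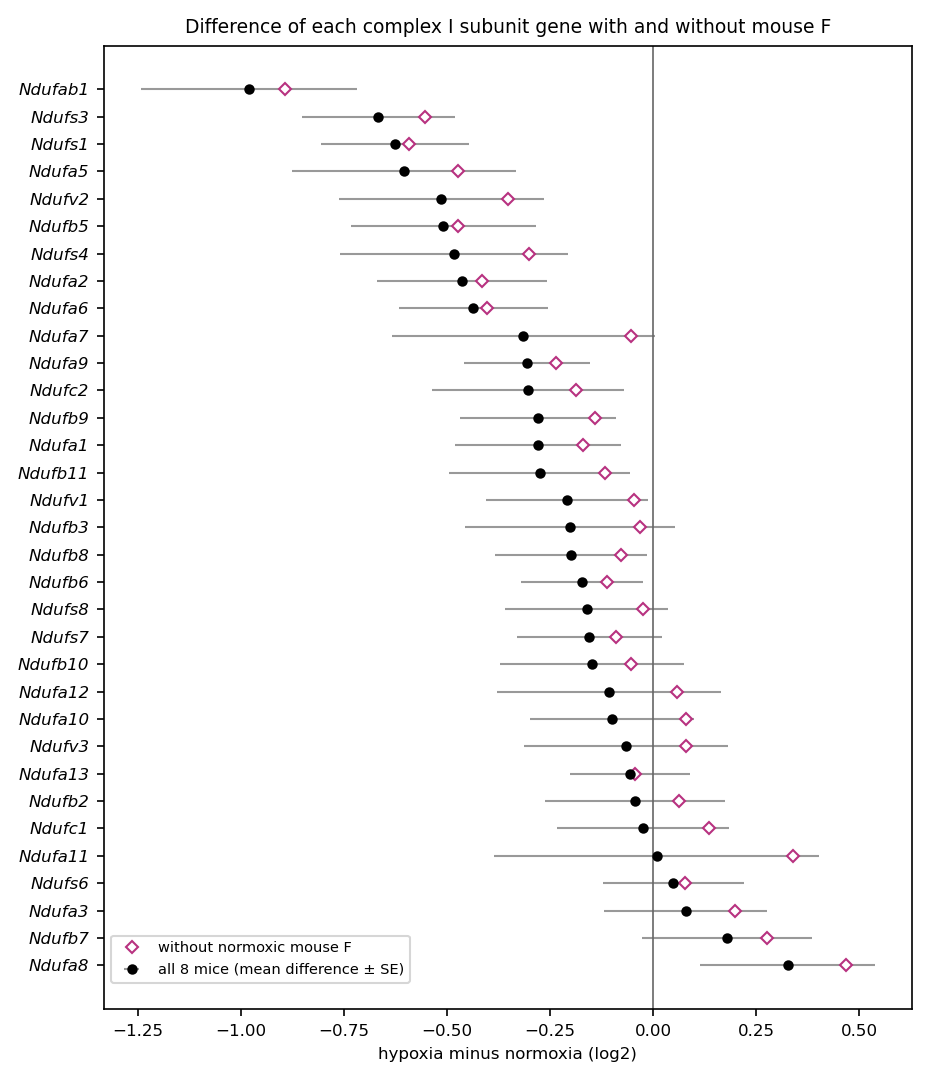
Hypoxia minus normoxia (log2) of each of the 33 complex I genes in all 8 mice (filled points with the limma SE) and without normoxic mouse F (open diamonds, no error drawn). With mouse F 28 genes lie left of 0 and without it 23, and *Ndufab1*, *Ndufs3* and *Ndufs1* stay lowest.

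Outside the 33 genes, *Ndufb1*, an accessory subunit of the distal membrane arm, differed by -0.07 (SE 0.20), and mouse F was highest of the 8 mice. Subunit genes of mitochondrial DNA were not analysed here. The 17 measured assembly factors of complex I, which help to build the enzyme and leave it, had a median difference of 0.00 (0.06 without F), with 8 lower and 9 higher means. The smallest p among them was that of *Ndufaf7*, an arginine methyltransferase, at -0.39 (SE 0.16, limma, adjusted p = 0.528). Their scores lay between -0.09 and 0.10 in the 8 mice, a narrower range than that of the subunits.

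The other respiratory complexes are given beside the complex I genes as context. Complex II (4 genes) had a median of -0.39 (-0.31 without F), and *Sdha*, its flavoprotein subunit, was 8.71, 8.50, 8.93 and 8.62 in F to I and 7.66, 7.42, 7.93 and 8.48 in A to D. Its groups were separate, with mouse F in the middle of the normoxic group, and the difference was -0.82 (SE 0.22, limma, adjusted p = 0.257) and -0.81 without F. Complex III (8 genes) had a median of -0.36 (-0.28 without F), with 7 lower means and mouse F highest of the 8 mice in 7 genes. Complex IV (10 genes) had a median of -0.24 (-0.13), and complex V (11 genes) one of -0.09 (-0.05). No gene of these lists passed an adjusted p of 0.05. Genes of the outer membrane, import and matrix enzymes were used as a measure of mitochondrial content (10 genes). They had a median of 0.06 and scores between -0.17 and 0.15, with mouse F (0.07) inside this range. The single genes were mixed in mouse F, which was above the gene's 8-mouse mean in 5 of the 10. It was highest of the 8 mice in 3, among them citrate synthase *Cs* at 8.93.

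Regulators of mitochondrial genes were also measured. *Ppargc1a*, the coactivator PGC-1alpha, differed by -0.62 (SE 0.23, limma, adjusted p = 0.46) and *Ppargc1b* by -0.42 (SE 0.15, adjusted p = 0.446), with separate groups in the latter. *Nrf1* differed by -0.09 (SE 0.15), *Gabpa* by -0.25 (SE 0.29) and *Esrra* by -0.24 (SE 0.17), and the median of the 12 regulators was -0.19 (-0.12 without F). Among mitochondrial genes known to respond to low oxygen, *Cox4i2*, the lung isoform of a cytochrome oxidase subunit, differed by 0.40 (SE 0.18, limma, adjusted p = 0.567) and *Ndufa4l2*, a paralogue of *Ndufa4*, by 0.30 (SE 0.16, adjusted p = 0.667). Of the 6 genes of that list 4 had a higher and 2 a lower mean, the latter being *Bnip3*, a mitophagy receptor, at -0.40 (SE 0.23, adjusted p = 0.697) and *Pdk1*, which inhibits pyruvate dehydrogenase, at -0.38 (SE 0.21, adjusted p = 0.674).

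Brown fat and striated muscle are tissues rich in mitochondria. Markers of fat and striated muscle had lower means in hypoxia, and mouse F had the highest score of each of these 4 lists. The score of 6 brown adipocyte genes reached 2.61 in mouse F, against 0.30, 0.39 and 0.23 in G to I and -1.29 to -0.41 in hypoxia, with 6 of 6 means lower in hypoxia and F highest in 6. *Ucp1*, the uncoupling protein that defines brown fat, was 9.27 in F, 5.28, 6.67 and 5.81 in G to I, and 2.71, 3.69, 2.78 and 5.48 in A to D. Mouse F therefore stood far above the other normoxic mice, and mouse D was the only hypoxic mouse in the normoxic range. The score of 10 white adipocyte genes was 1.37, -0.31, 1.20 and 0.64 in F to I, against -0.89 to -0.36 in hypoxia, with 10 of 10 means lower.

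The score of 14 fast skeletal muscle genes was 2.11, 2.04, -1.05 and -0.44 in F to I, against -0.99 to -0.10 in hypoxia, with 14 of 14 means lower. That of 14 cardiac muscle genes, which include genes of the heart-like muscle around pulmonary veins, was 0.50, 0.42, -0.02 and 0.37 in F to I and -0.40 to -0.18 in hypoxia, with 13 of 14 means lower. In both muscle lists mouse H was the lowest normoxic mouse, as it was for complex I, while in white fat markers it was the second highest. The muscle and brown fat isoforms of complex IV, *Cox6a2*, *Cox7a1* and *Cox8b*, of which the last 2 are also among the brown adipocyte genes, had a median of -1.60 (-1.08 without F). The part of these tissues in the level of the complex I genes was not tested.

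**Figure D4:**
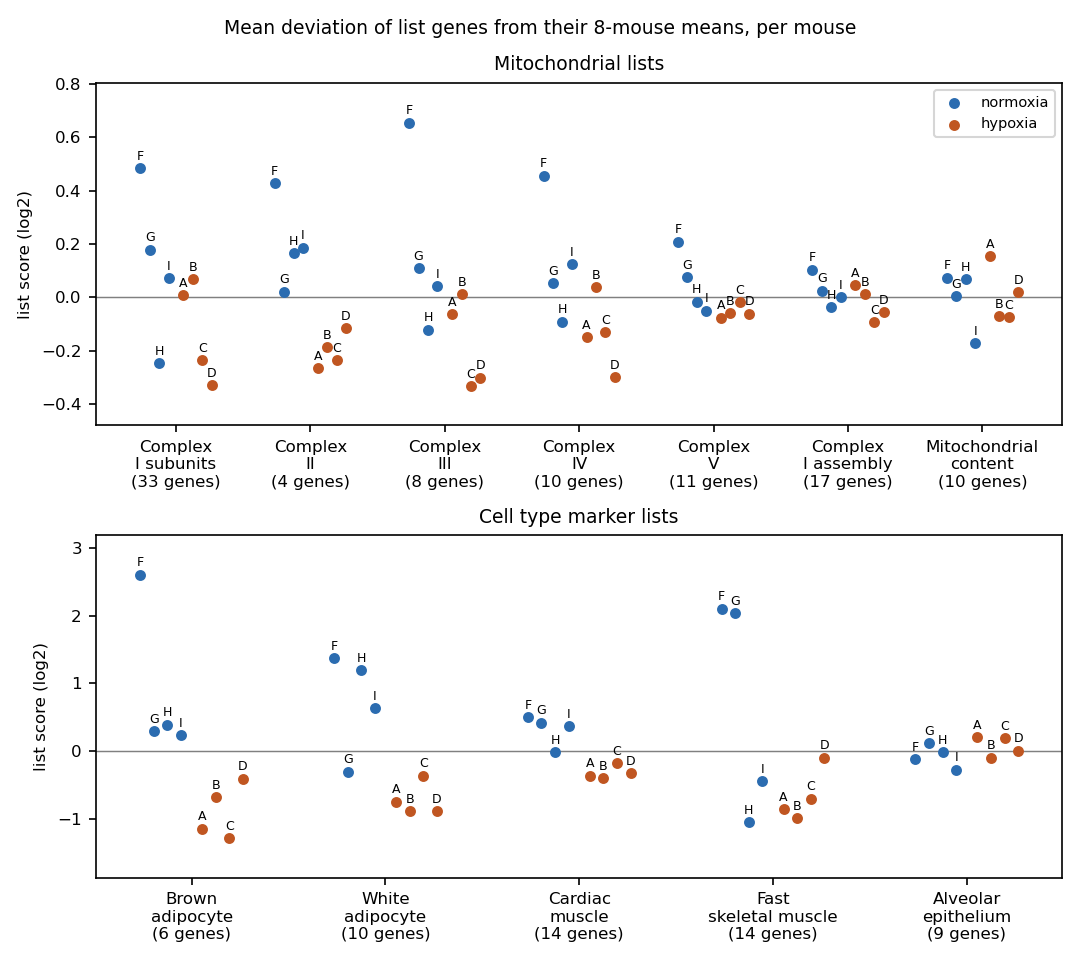
Score of each gene list in each mouse (points with the letter of the mouse), as the mean deviation of its genes from their own 8-mouse means in log2 units, for mitochondrial lists (upper panel) and cell type marker lists (lower panel, wider axis). Mouse F is highest in complexes I to V and in brown adipocyte markers, and lies at 0.07 in the mitochondrial content genes.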

How the data were processed

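RNA of lung lobes from each of 8 mice was hybridised to GeneChip Mouse Gene 2.0 ST arrays, and the number of lobes per mouse is not stated. The authors deposited log2 values made with RMA (robust multi-array average) and quantile normalization, using a custom chip definition (version 22) with 1 probe set per Entrez gene. The sources used here do not name the genome build or say which arrays were normalized as 1 set. Of 25428 probe sets, 24705 were named from the platform annotation, 564 through Entrez IDs, and 159 have no symbol. Hypoxia and normoxia were compared with limma 3.58.1 (R 4.3.3) without a filter and with Benjamini-Hochberg adjustment over all probe sets. Single genes were also tested by exact permutation of the mice. The fit was tested on simulated data. The labels give each mouse its own letter, and p-values measure the spread between these mice. A list score is the mean over its genes of the deviation from the gene's 8-mouse mean.

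The members and lists were chosen with earlier results of these data known. Every subunit gene is accounted for by module. Values per mouse are given for the 6 genes with the smallest p, the genes with separate groups, the 3 with the highest difference and the 4 that move most without mouse F. *Sdha*, *Ndufa9* and *Ucp1* values per mouse were added after they were seen. Alternatives were a repeated quantile normalization, median centring, a filter on probe sets with a mean under 5, one-way ANOVA as in the methods, a trended robust variance, array weights, leaving out each mouse, leaving out F and G, and core subunits only. Promoter sequences are those of RefSeq (GRCm38.p6).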

Additional observations from a re-analysis of the deposited data

Results flagged for a closer look

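In 5 of 114 sets of 4 values tested (the complex I genes and the list scores in each group), 1 mouse lay apart from the other 3 of its group by Dixon's 95% criterion, which by chance is met in about 1 of 20. *Ndufb5* was low in hypoxic mouse C (5.61), *Ndufs6* was low in hypoxic mouse D (7.41), *Ndufs8* was high in hypoxic mouse B (8.30) and *Ndufv3* was low in hypoxic mouse D (5.30). The brown adipocyte score was high in normoxic mouse F (2.61).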

How the results depend on the processing

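No complex I gene was called under any of the 16 settings, where the smallest adjusted p ranged from 0.138 (array weights) to 0.725 (without hypoxic mouse B), while up to 40 of all probe sets were called (40 with the filter on dim probe sets, which tests 9359 and leaves out *Ndufab1*). The median difference stayed below 0, from -0.36 (core subunits) to -0.05 (without F and G). Leaving out 1 mouse moved the count of genes lower at an unadjusted p under 0.05 from 7. It was then between 3 (without F, G, I or C) and 12 (without H). Genes with separate groups went from 3 to between 3 and 13 (without H). Of all probe sets, 3.15% were lower at this p with all 8 mice, 3.54% without F and 4.32% without H. The shares with separate groups and lower hypoxic values were 1.61%, 2.59% and 3.83%. Shares without any other single mouse were not counted. F and G had the highest normoxic scores of these same genes. Without F and G, 3 genes were lower at an unadjusted p under 0.05, against 5.76% of all probe sets. In that setting 17 genes had a lower mean, against 52.5%, and 8 had separate groups, counted in either direction. Of all probe sets, 11.1% had separate groups with lower hypoxic values, and the share with higher values was not counted. Among the 6 core subunits alone, 2 were lower at an unadjusted p under 0.05, against 3.15% of all probe sets. The groups were separate with lower hypoxic values in 2, against 1.61% of all probe sets. Some small differences changed sign. *Ndufa7* was 0.01 (0.008301) and *Ndufa10* 0.16 without F and G. On leaving out 1 mouse, *Ndufa10* ranged from -0.26 to 0.0794, *Ndufa3* from -0.0327 to 0.20 and *Ndufa11* from -0.28 to 0.34. The cause was not tested. No paired analysis was possible because the mice of the groups have different letters.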
